A study of Homo sapiens with 4 samples.

Results

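The genes described here act at the kinetochore, in the mitotic checkpoint, in spindle assembly and in cytokinesis, and they were chosen by name from a list of 53 gene symbols. Of these, 52 were found by symbol among the 14431 genes of the deposited table, and all 52 were measured well enough to be tested among 14199 genes. The remaining gene, CENPU, was listed under its older symbol MLF1IP. Its values are given beside the others, and it was kept out of every count. Bulk RNA-seq was done on 4 libraries made from the gastric cancer cell line HGC27, a human line. In 2 libraries (siAARS1) the cells had been treated with small interfering RNA against AARS1, the alanyl-tRNA synthetase that charges tRNA with alanine and that the study examined as an enzyme placing lactate on lysines. The other 2 libraries were control cells labelled as WT. Both groups were grown in glucose-free DMEM with 25 mM lactate. The labels give 24 h of lactate for all 4 libraries, while the text of the study gives another duration, so the time is uncertain. Every library came from the same line under lactate, and cells without lactate are not part of these data. The comparison asked how AARS1 knockdown changed RNA levels in lactate-fed cells.

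The kinetochore is the protein assembly that joins each centromere to spindle microtubules. Its inner part sits on chromatin carrying the histone variant CENP-A, and its outer part, built around the NDC80 complex, holds the microtubule. Unattached kinetochores activate the spindle checkpoint, which keeps CDC20 from switching on the anaphase-promoting complex (APC/C) until all chromosomes are attached. The APC/C then marks securin for destruction, separase frees the sister chromatids, and the cell is divided at a contractile ring. In proliferating tumor cells the RNA of most of these genes rises before mitosis and falls after it.

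The table gave 30653210 to 33522573 reads per library, and a single read was worth 0.0293 to 0.0324 CPM, the unit in which reads are scaled to library size. The lowest member count was 85 reads, so no member lay near the 3-read floor of 0.0880 to 0.0971 CPM. Gene-wise values of replicates correlated at r = 0.997 in both groups, against 0.939 to 0.948 between groups. AARS1 itself (listed as AARS, ENSG00000090861, chr16:70252295-70289543) was read at 428 and 417 CPM in the control libraries and at 292 and 298 CPM in the siAARS1 libraries. The siAARS1 mean was thus 69.7% of the control mean, which is -0.52 on the log2 scale with an SE of 0.036 (n = 2 against 2, limma adjusted p = 2.52e-11), or -0.30 after the GC content and length correction described further on. Of the mesenchymal markers, VIM was at 4600 to 5131 CPM and FN1 at 51.7 to 75.4 CPM, both called lower, and ZEB1 rose from 6.16 and 6.84 CPM in control to 50.03 and 52.3 CPM. The summed epithelial markers were at 27.0 and 27.3 CPM in control and at 6.14 and 7.29 CPM in siAARS1. Only KRT8 and CDH1 of the 5 epithelial markers were among the genes analysed, and KRT18, KRT19, EPCAM and the endothelial markers were not. The 4 fibroblast markers summed to 2702 and 2796 CPM in control and 1970 and 1881 in siAARS1, with COL1A1, COL1A2 and PDGFRB called lower and DCN higher. The labels do not say whether the 2 libraries of a group came from separate cultures, so the p-values measure only the spread between these libraries.

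Members called higher outnumbered members called lower. A gene was called when its limma p, adjusted over all 14199 genes, was under 0.05. By this rule 42 of the 52 members (80.8%) changed, 30 upwards and 12 downwards, and 10 did not pass. Under median scaling the split was 24 upwards and 23 downwards, with a median of 0.018. The calls were common in this comparison at large: 70.7% of all genes were called, 32.6% higher and 38.0% lower. Against this, 57.7% of the members were called higher and 23.1% lower. A rise of at least 1 on the log2 scale was called for 18 members (34.6%), against 10.6% of all genes. No member fell by as much as 1, and the lowest was CENPH at -0.51. The median log2 fold change of the members was 0.24, against -0.05 over all genes. The 2 groups did not overlap for 46 members (30 higher and 16 lower), which is 88.5%, against 85.1% of all genes. Summed over the 52 members, the level was 3834 and 3846 CPM in control and at 4768 and 4819 CPM in siAARS1. In bulk RNA, more cells in mitosis and more RNA of these genes per cell cannot be told apart. The changes also went with transcript GC content over all genes, as described further on, and no cause of the rise was tested.

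**Figure D1:**
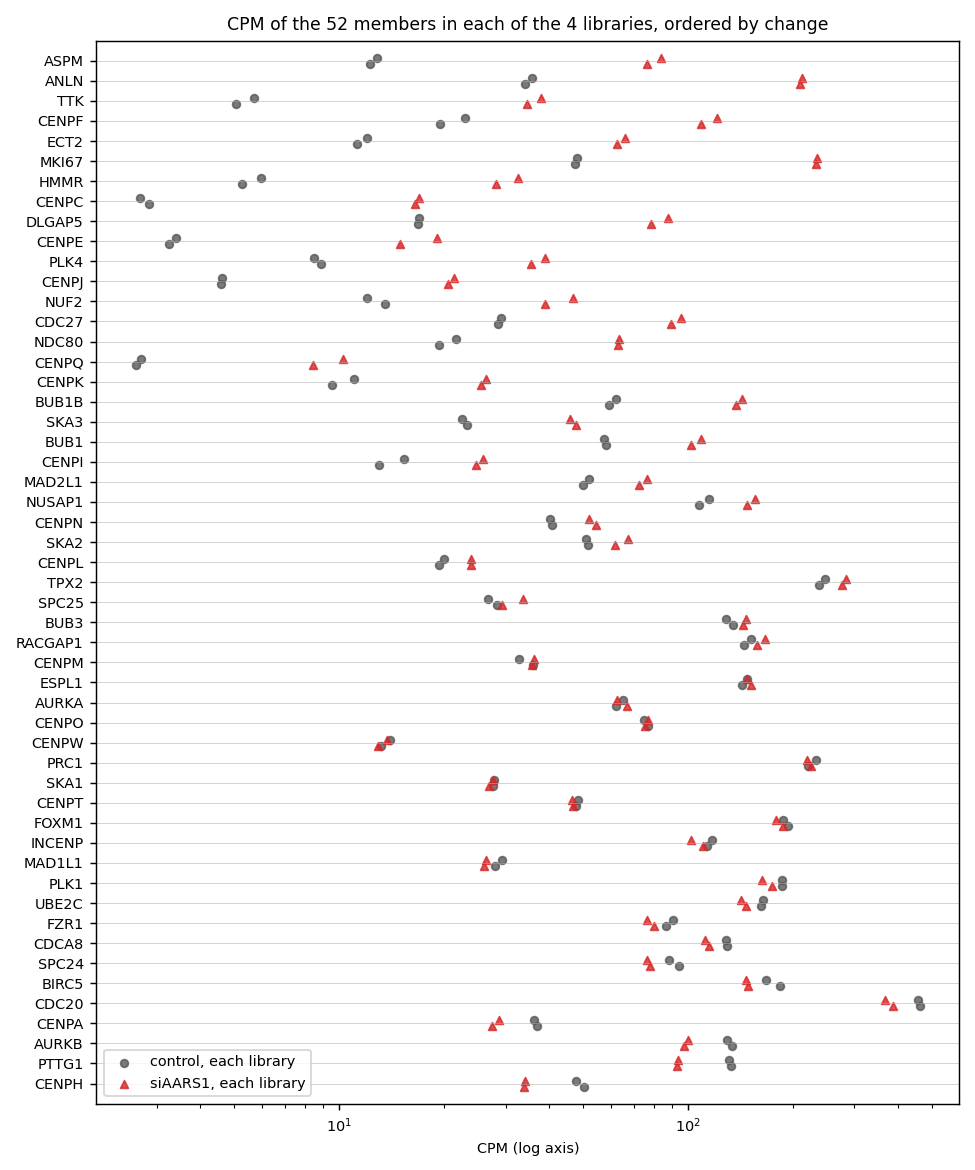
CPM (log axis) of the 52 members in each of the 4 libraries, ordered from the largest rise at the top to the largest fall at the bottom, with gray circles for control and red triangles for siAARS1. The members with the lowest control levels lie toward the top. The groups are apart for 46 members (88.5%), against 85.1% of all genes.

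**Figure D2:**
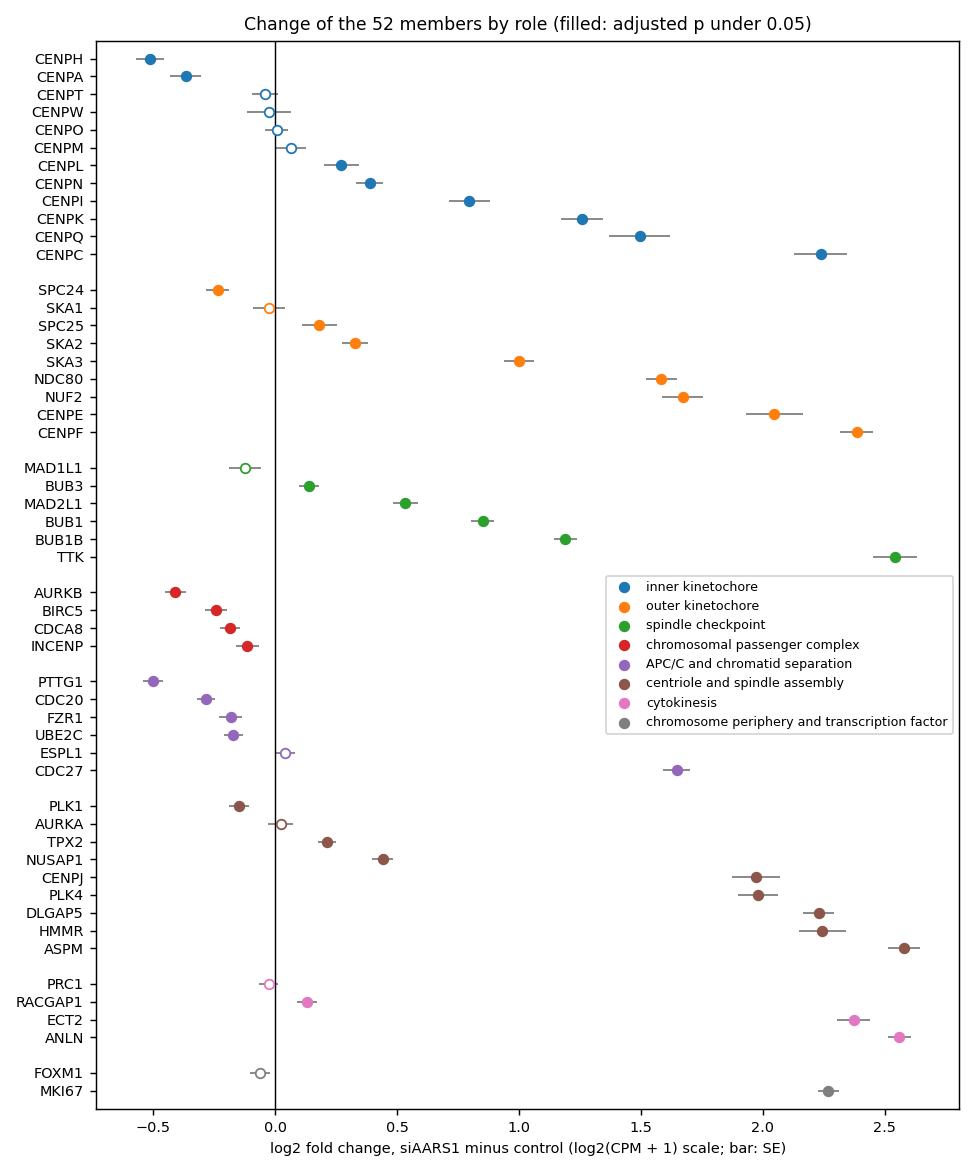
Log2 fold change, siAARS1 minus control, of each member on the log2(CPM + 1) scale, grouped by role, with bars for the SE. Filled points passed an adjusted p of 0.05, and open points did not. All 4 chromosomal passenger genes lie below 0, while 7 of 9 genes of centriole and spindle assembly were called higher. Over all genes, 32.6% were called higher and 38.0% lower.

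Many mitotic genes carry the cell cycle genes homology region (CHR) near their transcription start, an element through which the DREAM and MuvB complexes act, often together with CCAAT boxes bound by NF-Y. Promoter sequences from RefSeq (GRCh38.p14, 250 bases before to 50 after the start) matched 40 of the 52 members. The promoters of the members with the largest change in deposited CPM, ASPM, and the smallest, CENPO, are shown, together with ANLN. CENPA, chosen after its values were seen, is shown as the member with the largest fall whose window holds the CHR letters. Capitals mark TTTGAA, the CHR, and CCAAT, each on either strand (TTCAAA and ATTGG on the reverse). The windows are chr1:197146620-197146919 on the minus strand for ASPM, chr7:36389612-36389911 on the plus strand for ANLN, chr2:24793175-24793474 on the plus strand for CENPO and chr2:26785806-26786105 on the plus strand for CENPA, each printed 5′ to 3′ on the strand of its gene.
ASPM: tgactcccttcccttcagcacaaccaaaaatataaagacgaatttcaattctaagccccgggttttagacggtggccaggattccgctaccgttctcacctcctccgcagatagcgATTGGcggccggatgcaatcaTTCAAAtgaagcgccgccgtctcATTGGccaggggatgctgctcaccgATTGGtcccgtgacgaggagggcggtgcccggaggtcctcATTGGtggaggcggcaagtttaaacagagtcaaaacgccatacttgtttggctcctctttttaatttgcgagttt
ANLN: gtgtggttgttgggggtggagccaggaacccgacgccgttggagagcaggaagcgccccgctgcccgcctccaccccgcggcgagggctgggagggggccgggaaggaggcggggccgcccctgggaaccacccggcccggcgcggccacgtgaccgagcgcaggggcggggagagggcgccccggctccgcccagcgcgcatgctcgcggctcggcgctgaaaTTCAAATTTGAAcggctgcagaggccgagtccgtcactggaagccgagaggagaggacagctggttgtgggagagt
CENPO: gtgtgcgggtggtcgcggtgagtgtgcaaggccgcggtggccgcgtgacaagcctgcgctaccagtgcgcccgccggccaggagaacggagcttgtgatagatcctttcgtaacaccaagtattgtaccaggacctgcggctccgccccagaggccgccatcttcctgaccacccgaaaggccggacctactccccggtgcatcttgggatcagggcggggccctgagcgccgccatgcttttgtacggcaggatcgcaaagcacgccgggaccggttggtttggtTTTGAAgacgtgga
CENPA: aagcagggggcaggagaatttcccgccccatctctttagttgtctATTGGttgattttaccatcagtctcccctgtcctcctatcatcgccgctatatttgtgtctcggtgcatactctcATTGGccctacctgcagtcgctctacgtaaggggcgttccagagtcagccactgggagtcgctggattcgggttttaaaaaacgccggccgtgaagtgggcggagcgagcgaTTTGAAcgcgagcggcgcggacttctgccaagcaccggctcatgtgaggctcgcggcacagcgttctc

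The CHR letters stand at -20 in ANLN, next to a reverse copy at -26, at -18 in CENPA, at -113 in ASPM and at 37 in CENPO, counted from the start. TTTGAA was found in 27 of 40 member promoters (67.5%), against 903 of 9652 promoters of tested genes (9.36%) and 15.4% of all 27305 promoters of this length. CCAAT was found in 27 of 40 as well, against 37.0% of tested genes' promoters and 35.7% of all promoters, and both motifs stood together in 18 member promoters (45%, against 3.89% and 6.08%). Within the members they were found in every class of change. The CHR letters were in 12 of 16 promoters of members higher by at least 1, in 5 of 8 of those higher by less, in 6 of 9 of those lower, and in 4 of 7 of those not called. The median log2 fold change was 0.53 for the 27 members with them and 0.33 for the 13 without. For CCAAT the order was the other way, with 0.39 for the 27 members with it and 1.00 for the 13 without, and CCAAT was in 8 of 9 promoters of members called lower. A match of letters is a description and not a site shown to be bound.

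In the inner kinetochore, 6 of 12 genes rose, CENPH and CENPA fell, and 4 did not pass, with a median log2 fold change of 0.17. In all, 66.7% of this role was called, against 70.7% of all genes (32.6% higher and 38.0% lower). CENPC, the scaffold that binds CENP-A nucleosomes (ENSG00000145241, chr4:67468748-67545606), was at 2.84 and 2.68 CPM in control and at 16.5 and 16.9 CPM in siAARS1, a log2 fold change of 2.24. CENPQ, of the CENP-O group, was at 2.61 and 2.71 CPM in control and at 8.42 and 10.3 CPM in siAARS1, a difference of 1.49. CENPK, a subunit of the complex that CENP-H, CENP-I, CENP-K and CENP-M form, was at 9.56 and 11.1 CPM in control and at 25.6 and 26.4 CPM in siAARS1, a difference of 1.26. These 3 genes were low in control and had siAARS1 values all above the control values, where 85.1% of all genes had no overlap. CENPI (0.80) and CENPN (0.39) rose less. With GC content and length corrected for, CENPI lost its call (0.14). Under the coding sequence and 3′ UTR correction described further on, CENPI was called lower (-0.36) and CENPN lost its call (0.093). CENPL rose by 0.27, and this call was lost under median scaling (0.052) and quantile normalization (0.043).

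Other members of the same complexes fell or did not pass. CENPH (ENSG00000153044, chr5:69189548-69210357), which binds together with CENP-K, was at 50.3 and 47.8 CPM in control and at 33.8 and 34.2 CPM in siAARS1. This was the largest fall among the members, -0.51 with an SE of 0.058 (limma adjusted p = 7.00e-08). The groups of CENPH did not overlap, as for 85.1% of all genes. CENPA, the histone variant that marks the centromere, was at 36.9 and 36.2 CPM in control and at 27.4 and 28.8 CPM in siAARS1 (-0.37, limma adjusted p = 2.42e-05). CENPM was at 35.9 and 32.7 CPM in control and at 35.6 and 36.2 CPM in siAARS1, with overlapping groups. CENPO was at 76.6 and 75.02 CPM against 75.3 and 77.0 CPM, the smallest change of any member in deposited CPM. CENPT and CENPW form a histone-fold pair that contacts DNA and the NDC80 complex. CENPT was at 47.8 and 48.4 CPM in control and at 46.8 and 46.5 CPM in siAARS1, and CENPW was at 13.1 and 14.0 CPM against 12.9 and 13.7 CPM. Adjusted p-values of these 4 genes in limma were 0.368 to 0.910. With GC content and length corrected for, CENPM (0.37), CENPO (0.23) and CENPT (0.27) were called higher, and CENPW (0.040) was not called. The coding sequence and 3′ UTR correction gave the same calls (0.43, 0.22, 0.25 and 0.11). CENPU, under its older symbol, was at 6.13 and 6.52 CPM in control and at 20.1 and 21.5 CPM in siAARS1, a log2 fold change of 1.57 with an SE of 0.094 (limma adjusted p = 2.34e-12). It works beside CENP-Q, which also rose.

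Most outer kinetochore genes rose: 7 of 9 were called higher, SPC24 was lower and SKA1 did not pass, with a median of 1.00. The shares over all genes were 32.6% called higher and 38.0% called lower. CENPF, a large coiled-coil protein that binds microtubules (ENSG00000117724, chr1:214603195-214664588), was at 19.4 and 23.0 CPM in control and at 109 and 121 CPM in siAARS1, a log2 fold change of 2.39. CENPE, the kinesin that moves chromosomes to the spindle equator, was at 3.26 and 3.40 CPM in control and at 14.9 and 19.1 CPM in siAARS1 (2.05). NUF2, a subunit of the NDC80 complex, was at 13.5 and 12.0 CPM in control and at 38.9 and 46.9 CPM in siAARS1 (1.67). Each of these genes was above every control value in both siAARS1 libraries, and 85.1% of all genes had groups without overlap. NDC80 rose by 1.58, SKA3 by 1.00, which is just under 1 before rounding, and SKA2 by 0.33, where SKA2 lost its call under median scaling (0.10). SKA2 (-0.57), SPC25 (-0.17) and SKA1 (-0.40) were called lower once GC content and length were corrected for. The remaining NDC80 complex subunits moved little: SPC25 rose by 0.18, a call lost without control replicate 2 (0.14) or siAARS1 replicate 2 (0.082) and turned under median scaling (-0.040) and quantile normalization (-0.011). SPC24 was at 93.9 and 88.4 CPM in control and at 77.9 and 76.5 CPM in siAARS1 (-0.24). SKA1, of the complex that follows depolymerizing microtubules, was at 27.6 and 27.9 CPM in control and at 26.8 and 27.6 CPM in siAARS1 (limma adjusted p = 0.728).

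Of the 6 spindle checkpoint genes, 5 rose, none fell, and MAD1L1 did not pass. By the same rule 32.6% of all genes were called higher and 38.0% lower. TTK, the kinase MPS1 that starts checkpoint signaling (ENSG00000112742, chr6:80003887-80042527), was at 5.07 and 5.71 CPM in control and at 34.5 and 37.9 CPM in siAARS1, a log2 fold change of 2.54. BUB1B, which encodes BUBR1 of the mitotic checkpoint complex, was at 59.3 and 62.2 CPM in control and at 137 and 143 CPM in siAARS1 (1.19). BUB1, the kinase that brings other checkpoint proteins to kinetochores, was at 58.4 and 57.4 CPM against 102 and 109 CPM (0.85). MAD2L1, the MAD2 protein that captures CDC20, rose by 0.53. Once GC content and length were corrected for, it was called lower (-0.59), but the coding sequence and 3′ UTR correction called it higher (0.14). BUB3, the common partner of BUB1 and BUBR1, rose by 0.14, a call lost without control replicate 2 (0.10). The BUB3 change turned under median scaling (-0.088) and under the GC content and length correction (-0.99, called lower). MAD1L1, which anchors MAD2 at kinetochores, was at 28.01 and 29.2 CPM in control and at 26.002 and 26.4 CPM in siAARS1, without overlap but with a limma adjusted p of 0.1002.

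The chromosomal passenger complex corrects faulty attachments and later directs cytokinesis. All 4 of its genes were called lower, against 38.0% of all genes. AURKB, its kinase (ENSG00000178999, chr17:8204733-8210600), was at 134 and 129 CPM in control and at 97.4 and 100.3 CPM in siAARS1, a log2 fold change of -0.41 with an SE of 0.043 (limma adjusted p = 2.52e-08). BIRC5, survivin, was at 184 and 167 CPM in control and at 149 and 147 CPM in siAARS1 (-0.24). CDCA8, borealin, was at 129 and 129 CPM against 115 and 112 CPM (-0.18). INCENP, the scaffold, was at 113 and 117 CPM against 110 and 102 CPM (-0.11, limma adjusted p = 0.0325). The groups did not overlap for any of these genes, as for 85.1% of all genes, and the falls were small. The INCENP call was lost without control replicate 2 (-0.091) or siAARS1 replicate 2 (-0.058), and in both edgeR (-0.077) and DESeq2 (-0.062). Once GC content and length were corrected for, as described further on, only AURKB of the 4 was still called lower, and INCENP was called higher.

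Among APC/C and chromatid separation genes, 4 of 6 fell, CDC27 rose and ESPL1 did not pass. For all genes the shares were 38.0% called lower and 32.6% called higher. CDC27, a core APC/C subunit (chr17:47117703-47189422), was at 28.6 and 29.2 CPM in control and at 89.5 and 95.7 CPM in siAARS1, a log2 fold change of 1.65. PTTG1, which encodes securin (ENSG00000164611, chr5:160421822-160428744), was at 133 and 131 CPM in control and at 92.7 and 93.3 CPM in siAARS1 (-0.50, limma adjusted p = 6.90e-10). CDC20, the APC/C activator of metaphase, was the most abundant member in CPM, at 463 and 456 CPM in control and at 388 and 367 CPM in siAARS1 (-0.28). All siAARS1 values of PTTG1 and CDC20 were below those of control, and 85.1% of all genes had no overlap in either direction. FZR1, the activator used later in mitosis, was at 86.3 and 90.8 CPM in control and at 79.7 and 76.1 CPM in siAARS1 (-0.18), a call lost in DESeq2 (-0.13). UBE2C, the ubiquitin-conjugating enzyme of the APC/C, was at 162 and 164 CPM against 147 and 142 CPM (-0.17). ESPL1, separase, was at 143 and 148 CPM against 151 and 147 CPM, with overlapping groups. With GC content and length corrected for, this role had 3 genes called higher, among them FZR1 (0.17) and ESPL1 (0.34). PTTG1 alone was called lower. ESPL1 was called higher under the coding sequence and 3′ UTR correction as well (0.20).

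Centriole and spindle assembly held the largest median of the 8 roles from deposited CPM, 1.97. In this role 7 of 9 genes were higher, against 32.6% of all genes, PLK1 was lower and AURKA did not pass. The role's median was 0.99 under the GC content and length correction and 0.22 under the other. Both lay below the medians of MKI67 and FOXM1 as a pair (1.06 and 0.73). ASPM, which focuses spindle poles (ENSG00000066279, chr1:197084128-197146694), was at 12.2 and 12.9 CPM in control and at 76.1 and 83.9 CPM in siAARS1, the largest rise of the members, 2.58 on the log2 scale with an SE of 0.066 (limma adjusted p = 1.30e-18). HMMR, a microtubule-binding protein of the spindle pole, was at 5.28 and 5.96 CPM in control and at 28.2 and 32.6 CPM in siAARS1 (2.24). DLGAP5, which stabilizes kinetochore fibers, was at 16.8 and 17.0 CPM against 78.1 and 87.9 CPM (2.23). Levels of these 3 genes in siAARS1 were several times those in control in both libraries. PLK4, the kinase that starts centriole duplication, rose by 1.98, and CENPJ, a centriole elongation factor, rose by 1.97. NUSAP1 rose by 0.44 and TPX2, the activator of Aurora A, by 0.21, where TPX2 turned under median scaling (-0.017). PLK1 and AURKA, kinases of mitotic entry, were not among the members called higher. PLK1 was at 186 and 186 CPM in control and at 174 and 163 CPM in siAARS1 (-0.15), a call lost in DESeq2 (-0.095) and turned with GC content and length corrected for (0.16, called higher). AURKA was at 62.2 and 65.1 CPM in control and at 66.8 and 62.7 CPM in siAARS1, with overlapping groups.

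Cytokinesis genes were split in size of change, with 3 of 4 called higher, against 32.6% of all genes, and PRC1 not passing. ANLN, anillin, which links the contractile ring to the membrane (ENSG00000011426, chr7:36389806-36453791), was at 34.0 and 35.7 CPM in control and at 209 and 212 CPM in siAARS1, a log2 fold change of 2.56 with an SE of 0.046 (limma adjusted p = 7.64e-21). ECT2, the exchange factor that activates RhoA at the cleavage site (chr3:172750682-172821474), was at 11.2 and 12.0 CPM in control and at 62.7 and 66.1 CPM in siAARS1 (2.37). RACGAP1, the centralspindlin subunit that recruits ECT2, was at 145 and 151 CPM against 158 and 166 CPM (0.13). That call was lost without control replicate 1 (0.098, limma adjusted p = 0.124) or siAARS1 replicate 2 (0.093), and turned under median scaling (-0.098) and with GC content and length corrected for (-0.24, called lower). PRC1, which bundles the central spindle, was at 220.5 and 232 CPM in control and at 226 and 219 CPM in siAARS1, with overlapping groups.

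MKI67 and FOXM1 were the last pair. MKI67, the Ki-67 protein that coats mitotic chromosomes and serves as a proliferation marker (ENSG00000148773, chr10:128096659-128126385), was at 47.3 and 47.9 CPM in control and at 233 and 234 CPM in siAARS1, a log2 fold change of 2.27 with an SE of 0.042 (limma adjusted p = 1.49e-20). Its share of the summed CPM of the 52 members was 1.23% and 1.25% in control and 4.88% and 4.86% in siAARS1. FOXM1, a transcription factor that drives many genes of late cell cycle phases, was at 194 and 188 CPM in control and at 187 and 179 CPM in siAARS1. Its groups did not overlap, and its change of -0.062 did not pass (limma adjusted p = 0.171).

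Partners of the same complex changed by unequal amounts, which a ratio within each library shows whatever the scaling of the libraries. Such a ratio does not take out the relation of the change to transcript GC content, described further on. GC content differed within some pairs (40.1% for NDC80, 53.4% for SPC24) and little within others (38.8% for NUF2, 40.0% for SPC25). The pairs were chosen after the values were seen and were not tested. CPM of NDC80 over SPC24 was 0.206 and 0.244 in control and 0.809 and 0.829 in siAARS1. The ratio of NUF2 to SPC25 was 0.475 and 0.449 against 1.33 and 1.39, and that of CENPK to CENPH was 0.190 and 0.232 against 0.757 and 0.772. In each of these pairs the ratio was higher in both siAARS1 libraries. ECT2 over RACGAP1 was 0.0776 and 0.0794 in control and 0.397 and 0.398 in siAARS1. BUB1B over BUB3 was 0.439 and 0.484 against 0.953 and 0.973. Within the passenger complex the ratios stayed closer: CDCA8 over INCENP was 1.14 and 1.10 against 1.04 and 1.09, with both siAARS1 values just below control, and BIRC5 over INCENP was 1.63 and 1.43 against 1.35 and 1.44, where the groups overlapped. AURKB over INCENP was 1.18 and 1.11 in control and 0.882 and 0.982 in siAARS1.

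**Figure D3:**
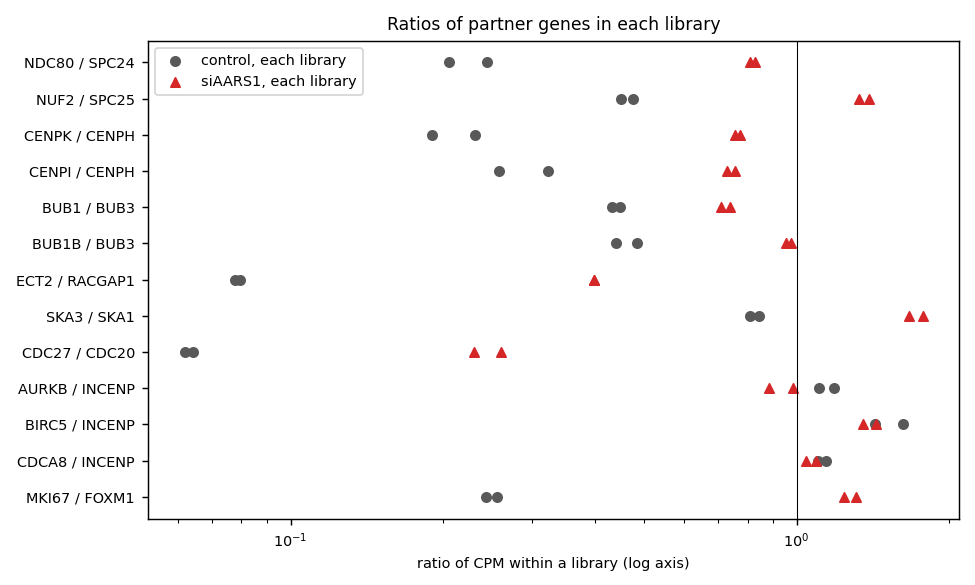
Ratio of the CPM of partner genes in each library (log axis), with gray circles for control, red triangles for siAARS1 and a line at 1. Ratios of the NDC80 complex, CENP-H group, checkpoint and ECT2 pairs are higher in both siAARS1 libraries, whereas those of CDCA8 over INCENP are slightly lower there and those of BIRC5 over INCENP overlap. The ratios are not corrected for transcript GC content.

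CPM is not corrected for gene length, so levels of different genes were compared per kilobase of a representative transcript (GENCODE v29). In control, CDC20 was highest at 258 CPM per kb, followed by UBE2C at 191 and PTTG1 at 123, and CENPE was lowest at 0.387 CPM per kb, next to CENPC at 0.398. In siAARS1, CDC20 and UBE2C were still at the top, with 212 and 170 CPM per kb, and CENPE and CENPC were still lowest, with 1.98 and 2.41. The range between members was thus narrower in siAARS1. The 18 members higher by at least 1 had a median of 2.53 CPM per kb in control and 13.5 in siAARS1, while the 12 members called lower had 62.0 and 53.4.

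The size of the change also went with the make-up of the transcript. The 18 members higher by at least 1 had a median transcript GC content of 38.4% and a median coding length of 2788.5 bases. The 12 lower members had 52.8% and 793.5 bases, and the 10 not called had 54.1% and 1449 bases. Across the 52 members the log2 fold change correlated with GC content at r = -0.69 (Spearman -0.78) and with transcript length at r = 0.55 (Spearman 0.57). These points share the same 4 libraries. The same relation held over all genes, with r = -0.61 (Spearman -0.65) for GC content over 13819 genes. All genes were divided into 5 equal classes by GC content. In the class with the lowest GC content, 79.8% of all genes were called higher, with a median of 0.76. All 21 members in that class were called higher, with a median of 1.67. In the next class 7 of 12 members were called higher, against 52.2% of all genes. The members' median there was 0.20, equal to the 0.20 of all genes. In the middle class 2 of 7 members were called higher and 5 lower, with a median of -0.18. Of all genes in the middle class, 19.98% were called higher, with a median of -0.11. In the 2 classes with the highest GC content none of 12 members was called higher, against 6.40% and 5.14% of all genes. The members' medians in these classes were -0.10 and -0.12, above the -0.24 and -0.30 of all genes. CENPH was an exception on one side, with a fall of 0.51 at a GC content of 42.5%, and MKI67 on the other, with a rise of 2.27 at 48.3%.

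**Figure D4:**
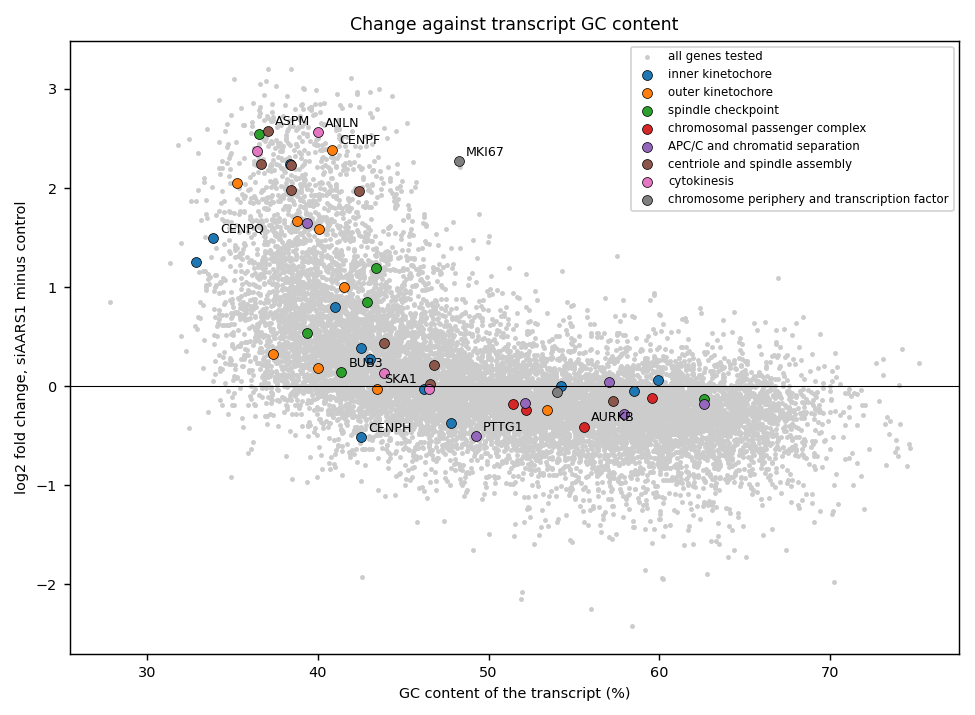
Log2 fold change, siAARS1 minus control, against transcript GC content (%), with gray dots for all genes tested and colored points for the 52 members by role. Members low in GC content rise with the cloud of all genes, and MKI67 lies above it.

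When the smooth trend of each library on GC content and length was taken out, 32 members were called higher and 11 lower, with a median of 0.23. Over all genes the corrected values gave 32.8% higher and 33.6% lower. A rise of at least 1 was left for 11 members and for 475 of 13819 genes at large. When the properties of the coding sequence and the 3′ UTR were used instead, a setting added after the data were seen, 28 of 51 members were called higher and 12 lower, with a median of 0.14, against 34.2% and 31.8% of all genes. Here FZR1 could not be corrected, and of the members MKI67 alone kept a rise of at least 1, as did 144 of 12014 genes at large. The calls were kept under both corrections by 18 of the 30 higher members and by PTTG1, AURKB, CENPH and CENPA of the 12 lower ones. Of the 10 members not called from deposited CPM, 6 were called higher and 2 lower under the first correction. Under the second, 6 were called higher and 3 lower.

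The corrections shrank the largest changes by unequal amounts. MKI67 went from 2.27 to 1.95 under the GC content and length correction and to 1.28 under the other. ANLN went from 2.56 to 1.59 and 0.98, and TTK from 2.54 to 1.58 and 0.69. ASPM, first by deposited values, went to 0.99 and 0.25, and CENPF to 1.09 and 0.072, which no longer passed. CENPE turned to -0.12 under the second correction, and BUB1 to -0.37. By role, inner kinetochore genes gave 7 higher and 2 lower under the first correction and 6 and 3 under the second. Outer kinetochore genes gave 5 and 3, then 4 and 2. Checkpoint genes gave 4 and 2, then 4 and 1. Passenger complex genes gave 1 and 1 under both. APC/C and separation genes gave 3 and 1, then 2 and 2, and cytokinesis genes 2 and 2, then 2 and 1. Genes of centriole and spindle assembly gave 8 and 0, then 7 and 2. BUB3 had the lowest value after the first correction, -0.99, where its annotated transcript carries a 3′ UTR of 6632 bases, and it was at -0.059 after the second.

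**Figure D5:**
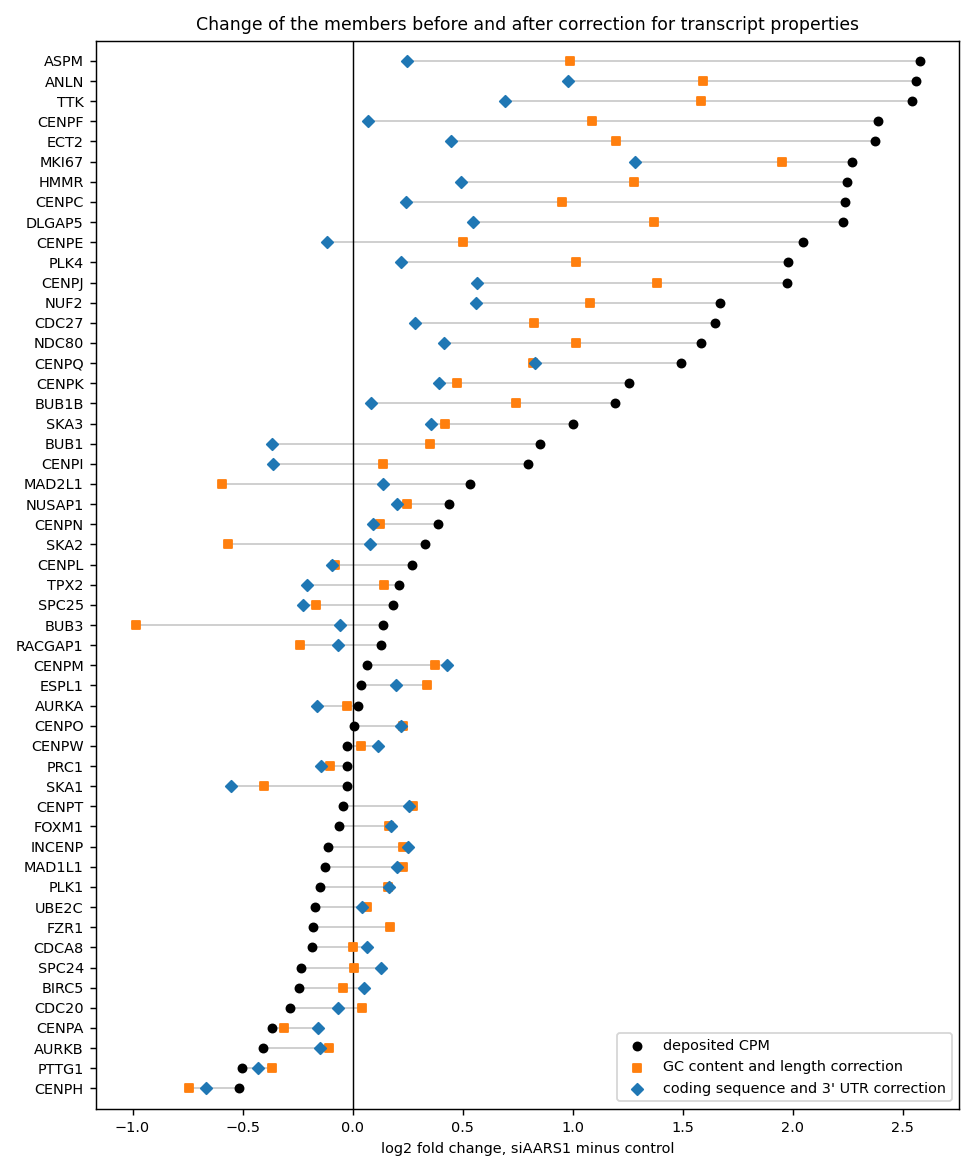
Log2 fold change of each member, siAARS1 minus control, from deposited CPM (black circles), after the GC content and length correction (orange squares) and with coding sequence and 3′ UTR properties taken out (blue diamonds). MKI67, ANLN and CENPQ stay to the right of 0 by the widest margins over the 3 settings, and CENPH and PTTG1 stay to the left.

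Some members share exonic bases with other genes. Exons of CENPO share 1488 of 5518 bases with ADCY3, and those of FOXM1 share 781 with ITFG2, both on the opposite strand, and the use of strand in counting is not given in the sources used here. Exons of CENPA share 138 bases with SLC35F6 on the same strand. The annotation names pseudogene or paralog copies of MKI67, DLGAP5, CENPC, CENPI, CENPU, BUB1, BUB3, AURKA, RACGAP1, PTTG1, UBE2C, CDC27, CDC20 and SKA2. The values of these genes are less certain.

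A wider list of 63 other mitotic genes showed a like split. The list was also chosen with earlier results of these data known, so it is no independent check. Its log2 fold changes went with transcript GC content too (Spearman -0.79). Of the 63 genes, 40 rose, 9 fell and 14 did not pass, with a median of 0.34. Among all genes 32.6% were called higher and 38.0% lower. Among the largest rises were those of SGO2, listed as SGOL2, which protects centromeric cohesin (1.99 and 3.12 CPM in control, 19.6 and 22.6 CPM in siAARS1, log2 fold change 2.65) and of KNL1, listed as CASC5, the outer kinetochore platform for BUB1 (4.90 and 4.92 against 29.4 and 35.9 CPM, 2.50). The largest falls were those of RHOA, the GTPase of the contractile ring (425 and 434 against 321 and 325 CPM, -0.41), of UBE2S, an APC/C ubiquitin-conjugating enzyme (327 and 316 against 266 and 258 CPM, -0.29), and of CHMP4B, which acts in the final cut between daughter cells (89.1 and 85.5 against 75.03 and 68.8 CPM, -0.28). With GC content and length taken out, 46 of the 63 were called higher and 4 lower. UBE2S (-0.014) and CHMP4B (-0.016) then lost their calls, and RHOA (-0.38) was still lower. KNL1 lost its call under the second correction (0.17).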

How the data were processed

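RNA-seq of 4 HGC27 libraries was used (2 control, 2 siAARS1; groups and replicate numbers from the titles). The authors deposited CPM values, a read count scaled to library size with no correction for gene length or GC content. The submitters' processing notes name RSEM 1.3.3 and hg38. The aligner, annotation and use of strand are not given in the sources used here. All deposited CPM values were whole multiples of 1 read within 0.1 read, which gave the read counts. Values were tested as log2(CPM + 1) with limma 3.58.1 (R 4.3.3, trended empirical Bayes) for 14199 genes with a group mean of at least 1 CPM, with Benjamini-Hochberg adjustment over all of them and a threshold of 0.05. Fold changes on this scale understate those of low genes. Alternatives were edgeR 4.0.16 and DESeq2 1.42.0 on recovered reads, a pseudocount of 0.1, no filter, median and quantile scaling, the replicate block, leaving out each library, and corrections by smooth trends (mgcv 1.9.3) on GENCODE v29 transcripts. These take out the whole trend, so a change shared by genes of like make-up is removed as well. Members and lists were chosen with earlier results of these data known. Values in every library are given for the 3 largest changes of each role, for every member called lower and for every member not called. Of the other mitotic genes, the 3 largest called rises and falls are named, except for 1 rise that is not reported here.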

Additional observations from a re-analysis of the deposited data

How the results depend on the processing

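No alternative turned the direction of the members' counts, and called members numbered 39 to 47. Median scaling raised the members called lower from 12 to 23, with 24 called higher, and moved the median of all genes tested from -0.05 to -0.26. The members' median, 0.24, was 0.018 under median scaling, 0.18 under quantile normalization, 0.14 under the coding sequence and 3′ UTR correction, 0.29 in edgeR and 0.30 in DESeq2. The cause was not tested. Leaving out 1 library gave 39 to 42 called members, 28 to 30 higher and 11 to 12 lower, with medians of 0.23 to 0.28. The replicate numbers are not said to pair the samples, and same-numbered samples deviated together at r = 0.118 over 2 pairs. With the replicate block, 42 members were called and the calls over all genes went from 10032 to 10389.

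Some changes reversed, most of them small. In DESeq2 these were CENPT (0.0083), CENPW (0.025), PRC1 (0.025) and SKA1 (0.025), and in edgeR CENPW (0.011), PRC1 (0.011) and SKA1 (0.010). Under median scaling they were AURKA (-0.20), BUB3 (-0.088), CENPM (-0.16), CENPO (-0.22), ESPL1 (-0.19), RACGAP1 (-0.098), SPC25 (-0.040) and TPX2 (-0.017), and under quantile normalization AURKA (-0.065), CENPM (-0.12), CENPO (-0.062) and SPC25 (-0.011). The GC content and length correction, with or without the block, reversed AURKA (-0.024), BUB3 (-0.99), CDC20 (0.042), CDCA8 (0.0018), CENPL (-0.080), CENPT (0.27), CENPW (0.040), FOXM1 (0.16), FZR1 (0.17), INCENP (0.23), MAD1L1 (0.23), MAD2L1 (-0.59), PLK1 (0.16), RACGAP1 (-0.24), SKA2 (-0.57), SPC24 (0.0040), SPC25 (-0.17) and UBE2C (0.065). The coding sequence and 3′ UTR correction reversed AURKA (-0.16), BIRC5 (0.052), BUB1 (-0.37), BUB3 (-0.059), CDCA8 (0.066), CENPE (-0.12), CENPI (-0.36), CENPL (-0.093), CENPT (0.25), CENPW (0.11), FOXM1 (0.17), INCENP (0.25), MAD1L1 (0.20), PLK1 (0.16), RACGAP1 (-0.067), SPC24 (0.13), SPC25 (-0.22), TPX2 (-0.21) and UBE2C (0.044). Leaving out 1 library reversed AURKA (-0.022 to 0.068), CENPM (-0.00038 to 0.13), CENPO (-0.0092 to 0.022), CENPW (-0.070 to 0.018) and PRC1 (-0.065 to 0.011), given as ranges over the 4 libraries.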
